A study of Mus musculus with 18 samples.

Results

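Gpr34, Cnr2, Adgre4, Adgre1, F2r, Htr2b, Pilrb1 and Aqp1 are 8 genes of the macrophage surface, followed here in mouse bone marrow macrophages that were exposed to silica or iron oxide nanoparticles and then given bacterial lipopolysaccharide (LPS) or not. They are 8 of 12393 genes measured, read by 10 of 22626 probe sets. Of these, 7 were picked because their signal changed strongly in these same arrays, mostly downward and for Htr2b upward after silica. Adgre1, which encodes the classical surface antigen by which mouse macrophages are known, was added as the reference for macrophages. Because that choice used the measured values, the differences of the 7 genes are given as descriptions with no p-value, and tests are reported for Adgre1 and for the relatives of the genes. Where the 7 are counted by the threshold used for all genes, the count is a description too. The data did not bear out a single picture of surface receptors lost under LPS or particles. Pilrb1 was higher under LPS but lower after both particles without LPS, and Htr2b was higher after both particles but lower under LPS. Adgre1 was 1.27-fold lower after SPIO and did not pass the test after silica or under LPS. Aqp1 is a water channel, not a receptor.

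The cells were grown from femoral bone marrow of C57BL/6 mice aged 4 to 6 weeks, in medium with 20% supernatant of L929 fibroblasts, which supplies the growth factor of macrophages. All 6 groups came from such cells, with 3 arrays each, and the labels name no genetic change in any of them. The control group (CON) received medium, and its label gives no times. The LPS group had medium for 24 h and then 10 ng/ml LPS for 4 h. The Silica group had 50 nm amorphous silica for 24 h and then medium for 4 h, and the SPIO group had 33 nm superparamagnetic iron oxide in the same way. The Silica-LPS and SPIO-LPS groups had the same particles for 24 h and then LPS for 4 h. Both particles were given at 25 mg/ml in the labels, a unit that could not be checked. The labels call the arrays biological replicates without saying whether separate mice were used, so a p-value here speaks only of the variation among these cultures.

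Most of the 8 proteins pass signals from outside the cell to G proteins. Gpr34 answers lysophosphatidylserine, a lipid shed by dying and activated cells, and is a well known gene of microglia and other tissue macrophages. Cnr2 is the cannabinoid receptor of immune cells. Adgre4 and Adgre1 belong to the adhesion receptors of myeloid cells, which carry EGF-like repeats on a long outer stalk. F2r is the thrombin receptor PAR1, which thrombin switches on by cutting its outer end, and Htr2b is a serotonin receptor. Pilrb1 is the activating member of a pair of immunoglobulin-like receptors and signals through the adaptor Tyrobp, while its partner Pilra inhibits. Aqp1 lets water through the membrane.

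Values are log2 signals of Affymetrix probe sets, on which a difference of 1 is a doubling, and signals of different probe sets are not comparable as amounts of RNA. The depositors had normalised the arrays. Array medians were 6.35 to 6.43 without LPS and 6.22 to 6.27 with it, and arrays of a group correlated at 0.997 to 0.999. The macrophage markers Csf1r, Cd68 and Lyz2 had CON means of 13.92, 12.57 and 14.45, near the top of the range, whereas the tissue macrophage genes Vsig4 and Cd163 stood at 4.71 and 5.72. Of the 16 measured macrophage markers 6 rose and 9 fell under LPS, and 1 fell and none rose after silica. Over all genes 22.2% rose and 36.1% fell under LPS, and 1.57% fell and 2.45% rose after silica. Because the arrays read whole cultures, fewer cells of a type and less RNA per cell cannot be told apart.

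**Figure D1:**
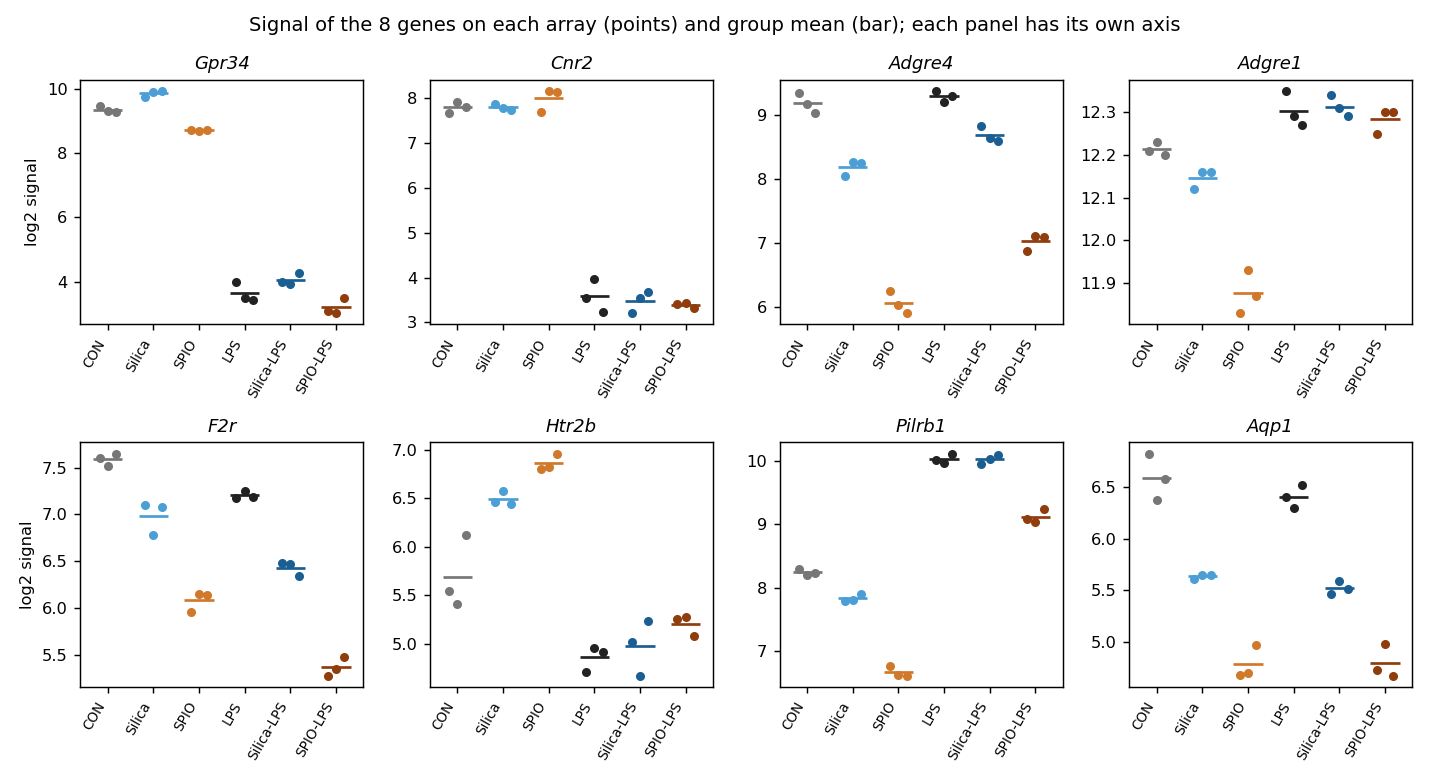
Signal of each of the 8 genes on each array (points, log2 signal) and the mean of each group of 3 (bar), with a separate vertical axis for every gene. Gpr34 and Cnr2 drop from above 7.6 to 4.26 or below in every LPS group, Adgre4, F2r, Aqp1 and Pilrb1 are lower after SPIO, and Adgre1 stays between 11.83 and 12.35.

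The lipid receptors Gpr34 and Cnr2 held the deepest LPS differences of the 8 genes. Gpr34 read 9.47, 9.29 and 9.26 in CON and 4.00, 3.49 and 3.43 in LPS. The difference was -5.70 ± 0.142 on the log2 scale (SE, n = 3 per group, 95% interval -6.00 to -5.40), or 51.9-fold lower on the measured signal. No gene of the 12393 had a larger LPS difference downward. In CON, 83.8% of probe sets had a lower signal than Gpr34, and in LPS 15.6% did, a rough guide to how near the dim end of the array the signal lay. Arrays read some background at that end, so this fold and those of Cnr2 depend on it and may understate the change. Cells that had met particles lost it as well, with 3.98, 3.94 and 4.26 in Silica-LPS and 3.08, 3.03 and 3.50 in SPIO-LPS.

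Without LPS, Gpr34 went opposite ways after the 2 particles. It read 9.74, 9.88 and 9.93 after silica, above every CON array, and 8.72, 8.67 and 8.72 after SPIO, below every CON array. The silica difference was 0.51 ± 0.142 (1.42-fold higher) and the SPIO difference -0.63 ± 0.142 (1.55-fold lower), which sets SPIO 2.21-fold below Silica. Under LPS the differences were 0.42 for silica and -0.44 for SPIO against the LPS group, but the arrays overlapped in both.

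Cnr2 was also far lower under LPS, and its differences after particles were within the spread of the arrays. It read 7.68, 7.93 and 7.81 in CON and 3.54, 3.97 and 3.24 in LPS, a difference of -4.22 ± 0.162 (95% interval -4.57 to -3.88, 18.7-fold lower on the measured signal). In LPS 14.6% of probe sets had a lower signal. The particle groups without LPS read 7.88, 7.79 and 7.75 for silica and 7.69, 8.17 and 8.14 for SPIO, and both overlapped CON. The intervals of those differences ran from -0.34 to 0.35 for silica and from -0.15 to 0.54 for SPIO. With LPS the signals were 3.21, 3.55 and 3.67 after silica and 3.42, 3.43 and 3.32 after SPIO, all within reach of the LPS arrays, and the differences from LPS were -0.11 and -0.20.

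Among the 16 measured relatives of Gpr34 (24 listed receptors of lysophospholipids and nucleotides and lysophosphatidylserine enzymes), 7 rose and 4 fell under LPS by limma with Benjamini-Hochberg adjustment over all genes. Across all 12393 genes, 22.2% rose and 36.1% fell. P2ry12, the ADP receptor of microglia and platelets, fell by 1.92 ± 0.0890 (adjusted p = 1.47e-11 by limma), and the proton sensor Gpr65 fell by 1.90 ± 0.0612 (adjusted p = 1.46e-13 by limma). P2ry14, a receptor for UDP-sugars, rose by 2.01 ± 0.104 (adjusted p = 6.1e-11 by limma). After SPIO, P2ry12 also fell, with a difference of -1.21 ± 0.0890 (adjusted p = 4.24e-08 by limma), and its difference between SPIO-LPS and LPS was -1.42 (adjusted p = 6.55e-09 by limma). P2ry12 and Gpr34 were therefore both lower under LPS and, without LPS, lower after SPIO. In SPIO-LPS against LPS the Gpr34 arrays overlapped. P2ry12 means were 8.40 in CON and 8.39 in Silica, where Gpr34 was higher. On this list 2 genes rose and 4 fell after SPIO (19.6% and 14.2% of all genes). None was called after silica alone by limma (3 of 16 had an unadjusted p under 0.05).

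Of the 9 measured relatives of Cnr2, 3 rose and 4 fell under LPS (22.2% and 36.1% of all genes). Daglb, which makes the endocannabinoid 2-arachidonoylglycerol, fell by 1.98 ± 0.0519 (adjusted p = 1.04e-14 by limma), while Naaa, which breaks down palmitoylethanolamide, rose by 2.09 ± 0.0602 (adjusted p = 3.38e-14 by limma). Ptgs2, the inducible cyclooxygenase, had group means of 9.80 in CON and 12.26 in LPS. The other cannabinoid receptor, Cnr1, did not pass the test under LPS (0.07 ± 0.0766, adjusted p = 0.43 by limma). Its means of 4.40 in CON and 4.47 in LPS lay toward the dim end, where a fall would have been hard to see. Cnr2 is also a gene of B cells, and on a list of 9 measured B cell markers 2 fell under LPS (Ighm and Blnk) and none rose. The summed signal of that list was 11.09 to 11.18 in CON and 10.25 to 10.41 in LPS. The defining B cell genes Cd79a and Ms4a1 were near the dim end in both groups, at 4.03 and 3.89 in CON and 4.17 and 4.19 in LPS. Most of that sum came from Blnk, at 10.44 in CON, which myeloid cells also express, and its part in the Cnr2 result was not tested.

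Adgre4 was lower after both particles and overlapped between CON and LPS. It read 9.34, 9.17 and 9.02 in CON and 9.37, 9.20 and 9.29 in LPS. Silica arrays read 8.05, 8.26 and 8.24, and SPIO arrays 6.25, 6.04 and 5.91. No particle array reached the lowest CON array, and no SPIO array reached the lowest Silica array. Adgre4 was thus 1.99-fold lower after silica (-0.99 ± 0.103) and 8.65-fold lower after SPIO (-3.11 ± 0.103, 95% interval -3.33 to -2.89), and SPIO lay 4.34-fold below Silica. No gene had a larger fall after SPIO, and 1 gene had a larger fall after silica.

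The Adgre4 differences were smaller once LPS was added. Signals were 8.83, 8.63 and 8.59 in Silica-LPS and 6.88, 7.11 and 7.10 in SPIO-LPS, each above every array of the same particle without LPS and below every LPS array. Against LPS the difference was -0.60 for silica (1.52-fold lower) and -2.25 for SPIO (4.77-fold lower). LPS on top of SPIO raised the signal by 0.96, whereas LPS alone moved it by 0.10 ± 0.103, a gap of 0.86 ± 0.146 between the responses. A second probe set of Adgre4 gave -0.78 after silica, -2.45 after SPIO and -2.08 in SPIO-LPS against LPS. With that probe set LPS alone gave 0.44 ± 0.144 and the gap was 0.36 ± 0.204, and with cyclic loess scaling LPS alone gave 0.29 with the first probe set, so the size of the LPS effect on Adgre4 depends on the probe set and the scaling.

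Adgre1 was near the top of the range on every array. Its signals were 12.21, 12.23 and 12.20 in CON, 12.12, 12.16 and 12.16 in Silica, and 11.83, 11.93 and 11.87 in SPIO. Among these, all SPIO arrays lay below the Silica arrays, and all Silica arrays lay below the CON arrays. Adgre1 fell after SPIO by 0.34 ± 0.0392, or 1.27-fold (adjusted p = 5.64e-06 by limma), and did not pass the test after silica (-0.07 ± 0.0392, adjusted p = 0.391 by limma). With LPS it read 12.35, 12.29 and 12.27 alone, 12.34, 12.31 and 12.29 after silica, and 12.25, 12.30 and 12.30 after SPIO. These 3 groups overlapped, and SPIO-LPS differed from LPS by -0.02 (95% interval -0.10 to 0.06, adjusted p = 0.768 by limma).

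LPS raised Adgre1 in SPIO cells by 0.41, or 1.33-fold (adjusted p = 1.3e-07 by limma), and in silica cells by 0.16 (adjusted p = 0.00197 by limma). In cells without particles the difference of 0.09 did not pass (adjusted p = 0.0707 by limma). The responses in SPIO and control cells differed by 0.32 ± 0.0554 (95% interval 0.20 to 0.44, adjusted p = 0.00119 by limma), those in silica and control cells by 0.08 ± 0.0554 (adjusted p = 0.874 by limma). Cyclic loess scaling moved the LPS difference to 0.24 in control cells (adjusted p = 4.96e-05 by limma), to 0.33 in silica cells and to 0.53 in SPIO cells, and the gap between SPIO and control cells to 0.29. The size of the LPS response of Adgre1 therefore depends on the scaling.

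Of the 13 measured adhesion receptors other than these (22 listed), none rose and 2 fell under LPS, 1 fell after silica, and 1 rose and 5 fell after SPIO. Over all genes, 22.2% rose and 36.1% fell under LPS, 1.57% fell after silica, and 19.6% rose and 14.2% fell after SPIO. Adgra2 moved with particles in the same direction as Adgre4, by -0.46 ± 0.0631 after silica (adjusted p = 0.000693 by limma) and by -1.03 ± 0.0631 after SPIO (adjusted p = 5.85e-09 by limma). The gene is best known as a receptor of brain vessels and stroma, and its fall was as large under LPS, at -1.01 for SPIO (adjusted p = 6.47e-09 by limma). Adgre5, the leukocyte antigen CD97, had a fall under LPS of -0.85 ± 0.0523 (adjusted p = 5.68e-10 by limma), where Adgre4 did not. Its group means were 9.89 in CON, 9.85 in Silica and 9.69 in SPIO.

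Adgre4 was 1 of 4 genes, with Pilrb1, F2r and Aqp1, whose arrays after SPIO lay wholly below those without particles both with and without LPS. RefSeq promoter windows on GRCm38.p6, from 250 bases before to 50 after the start of transcription, are shown for these 4 because all were lower after SPIO. They lie at chr17:55749734-55750033 on the plus strand for Adgre4, chr5:137858000-137858299 on the minus strand for Pilrb1, chr13:95618417-95618716 on the minus strand for F2r and chr6:55336049-55336348 on the plus strand for Aqp1. Each is written 5′ to 3′ on the gene's strand, with matches to the motifs named below in capitals.
Adgre4: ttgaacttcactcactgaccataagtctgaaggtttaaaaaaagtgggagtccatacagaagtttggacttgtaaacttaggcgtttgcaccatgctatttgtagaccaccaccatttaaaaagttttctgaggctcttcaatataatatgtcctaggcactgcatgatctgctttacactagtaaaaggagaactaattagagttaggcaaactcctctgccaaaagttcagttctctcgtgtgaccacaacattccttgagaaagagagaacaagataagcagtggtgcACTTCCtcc
Pilrb1: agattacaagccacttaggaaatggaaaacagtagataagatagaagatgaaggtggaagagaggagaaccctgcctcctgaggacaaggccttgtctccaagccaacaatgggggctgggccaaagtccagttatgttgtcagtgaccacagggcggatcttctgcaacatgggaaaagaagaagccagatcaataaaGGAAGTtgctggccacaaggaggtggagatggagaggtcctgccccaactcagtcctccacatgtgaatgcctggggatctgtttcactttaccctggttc
F2r: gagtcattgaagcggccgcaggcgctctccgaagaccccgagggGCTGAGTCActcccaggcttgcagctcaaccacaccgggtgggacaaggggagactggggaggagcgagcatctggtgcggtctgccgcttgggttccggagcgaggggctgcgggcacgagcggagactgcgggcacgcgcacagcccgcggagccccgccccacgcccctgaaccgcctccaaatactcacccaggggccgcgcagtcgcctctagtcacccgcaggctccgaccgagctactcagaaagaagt
Aqp1: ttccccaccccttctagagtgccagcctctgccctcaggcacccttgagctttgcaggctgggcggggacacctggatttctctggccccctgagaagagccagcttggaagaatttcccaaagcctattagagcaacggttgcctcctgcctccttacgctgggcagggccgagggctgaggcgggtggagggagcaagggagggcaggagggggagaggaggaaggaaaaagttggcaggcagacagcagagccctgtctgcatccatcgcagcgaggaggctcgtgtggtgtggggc
The windows shared little base composition, with GC contents of 40.3% for Adgre4, 50.0% for Pilrb1, 62.7% for Aqp1 and 68.7% for F2r around a median of 52.7% over all 32851 promoters.

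The windows of 6 of the 8 genes, 7 in all because Cnr2 has 2, were searched on both strands for 4 motifs. GGAAGT, the core bound by PU.1, the master factor of macrophages, and by other ETS factors, occurred in 23.8% of all promoters. It was found in Pilrb1 at bases 200 to 205 of the window and in Adgre4 on the reverse strand at bases 292 to 297, which lie after the start. TGANTCA, the AP-1 site, occurred in 7.81% of promoters and was found in F2r at bases 47 to 53 and in Htr2b at bases 88 to 94. TGACNNNGC, the core of the antioxidant response element, occurred in 12.4% of promoters and was found in F2r on the reverse strand at bases 45 to 53, where it overlaps the AP-1 match. TATAAA, found in 13.6% of promoters, was in none of the 7 windows, and the Aqp1 and Cnr2 windows held no match to any of the 4. A match describes letters only, and whether a factor binds there was not measured.

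Pilrb1 moved in opposite directions under LPS and after SPIO. It read 8.30, 8.20 and 8.23 in CON and 10.02, 9.97 and 10.12 in LPS, a difference of 1.79 ± 0.0653 (3.46-fold higher). After silica it read 7.79, 7.81 and 7.90, and after SPIO 6.77, 6.63 and 6.61. All particle arrays lay below CON, 1.33-fold for silica (-0.41) and 2.98-fold for SPIO (-1.57).

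Under LPS a silica difference in Pilrb1 was no longer detectable, while the SPIO difference was. Silica-LPS arrays read 9.96, 10.03 and 10.09 and overlapped the LPS arrays, with a difference of -0.01 (95% interval -0.15 to 0.13). SPIO-LPS arrays read 9.08, 9.04 and 9.25 and lay below all LPS arrays, with a difference of -0.91 (1.88-fold lower). The LPS response was 2.19 after silica (4.57-fold) and 2.45 after SPIO (5.47-fold), which exceeded that of control cells by 0.40 ± 0.0923 and 0.66 ± 0.0923.

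Its inhibitory partner Pilra was not among the genes picked and was tested. Pilra rose under LPS by 2.01 ± 0.0720 (adjusted p = 5.82e-13 by limma), fell after SPIO by 1.25 ± 0.0720 (adjusted p = 3.34e-09 by limma) and differed between SPIO-LPS and LPS by -0.76 (adjusted p = 6.19e-07 by limma). After silica alone it did not pass (0.02 ± 0.0720, adjusted p = 0.928 by limma), where Pilrb1 was lower. Pilra and Pilrb1 have closely similar sequences, and how far each probe set reads the other gene's RNA was not tested. The adaptor Tyrobp fell under LPS by 0.36 ± 0.0379 (adjusted p = 4.28e-07 by limma), opposite to the receptor, and rose after SPIO by 0.11 ± 0.0379 (adjusted p = 0.0341 by limma).

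Among all 16 measured relatives of Pilrb1 (24 listed paired receptors and their adaptors), 7 rose and 8 fell under LPS, and 6 rose and 3 fell after SPIO. The shares of all genes were 22.2% and 36.1% under LPS, and 19.6% and 14.2% after SPIO. Clec5a, another activating receptor that signals through adaptors, had group means of 7.38 in CON, 9.83 in LPS, 7.95 in SPIO and 10.57 in SPIO-LPS. It thus rose under LPS as Pilra did but rose after SPIO, by 0.57. Cd300ld fell under all 3 single treatments, with differences of -1.53 ± 0.0558 under LPS (adjusted p = 7.61e-13 by limma), -0.44 ± 0.0558 after silica (adjusted p = 0.000539 by limma) and -1.18 ± 0.0558 after SPIO (adjusted p = 5.51e-10 by limma).

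Most measured monocyte markers fell after SPIO, where Adgre4 and Pilrb1 were lower. Of the 13 measured, 8 fell and 1 rose after SPIO, and in SPIO-LPS against LPS the counts were again 8 and 1. Over all genes 14.2% fell and 19.6% rose after SPIO, and 14.6% fell and 18.2% rose in SPIO-LPS against LPS. Under LPS, where Pilrb1 was higher, 6 of the 13 rose and 6 fell (22.2% and 36.1% of all genes). After silica alone, where Adgre4 differed by -0.99 and Pilrb1 by -0.41, 3 fell and none rose (1.57% and 2.45% of all genes). In Silica-LPS against LPS, where Adgre4 differed by -0.60 and Pilrb1 by -0.01, 1 fell and none rose (0.976% and 1.89% of all genes). Ccr2, the chemokine receptor of young monocytes, fell after SPIO by 2.03 ± 0.120 (adjusted p = 4.36e-09 by limma), and the means of the monocyte gene Fcgr4 were 9.16 in CON, 8.01 in SPIO and 11.30 in LPS. The summed monocyte signal was 13.15 to 13.21 in CON, 12.99 to 13.11 in Silica, 12.99 to 13.05 in SPIO, 13.17 to 13.19 in LPS, 13.01 to 13.04 in Silica-LPS and 12.84 to 12.87 in SPIO-LPS. Cd36 was the brightest gene of that list in every group, with means of 12.11 in CON and 12.49 in SPIO. The sum therefore follows Cd36 more than the dimmer markers. Of 11 neutrophil markers, 8 fell and 1 rose after SPIO, with summed signals of 14.40 to 14.49 in CON and 13.94 to 13.99 in SPIO. Of the 16 measured macrophage markers, 4 rose and 9 fell after SPIO, with the same counts in SPIO-LPS against LPS, and their summed signal was 16.16 in CON and 16.13 to 16.15 in SPIO. The part of these cells in the falls of Adgre4 and Pilrb1 was not tested.

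**Figure D2:**
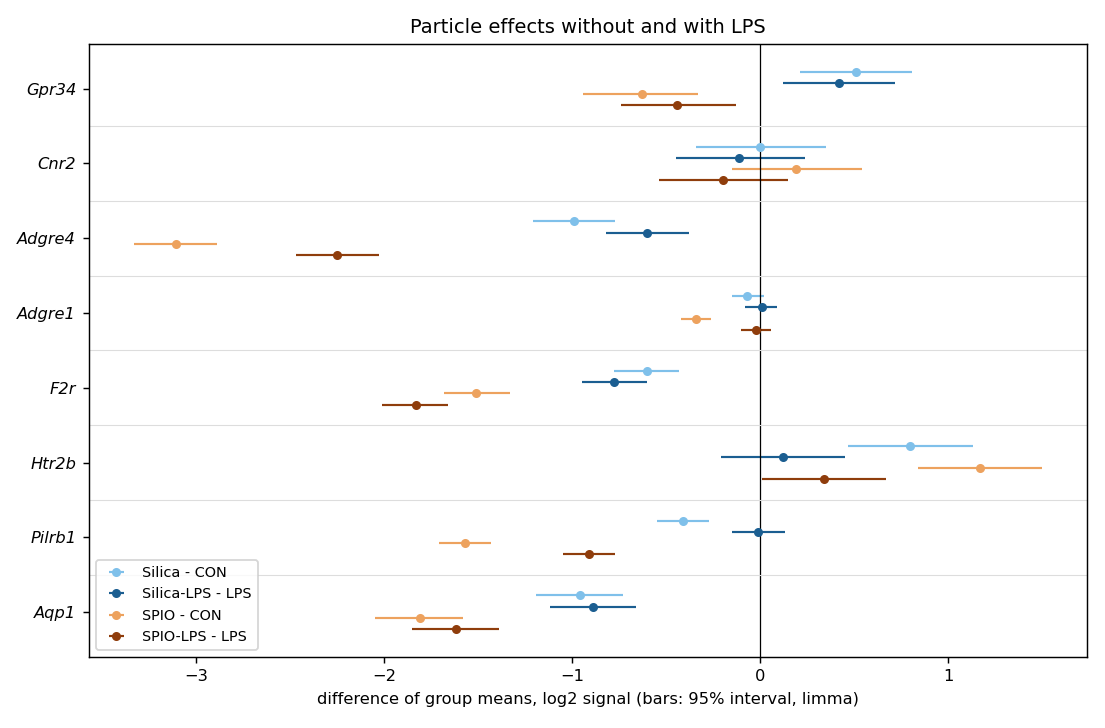
Difference in log2 signal between particle and matching particle-free groups for the 8 genes, without LPS (light) and with LPS (dark), with 95% intervals from limma. SPIO gives the larger fall for Adgre4, F2r and Aqp1 in both settings, Gpr34 parts between the particles, and Htr2b lies clear to the right of 0 for both particles without LPS.

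F2r was lower with every further treatment. It read 7.60, 7.52 and 7.65 in CON, 7.18, 7.25 and 7.19 in LPS, and 7.10, 6.78 and 7.08 in Silica. It then read 6.48, 6.47 and 6.34 in Silica-LPS, 5.96, 6.15 and 6.14 in SPIO, and 5.28, 5.35 and 5.48 in SPIO-LPS. No neighbours in this order of 6 groups overlapped. The differences of F2r from CON were -0.38 ± 0.0819 under LPS, -0.60 after silica (1.52-fold lower) and -1.51 after SPIO (2.84-fold lower), and with cyclic loess scaling the LPS difference was -0.25.

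The particle differences of F2r were larger with LPS, at -0.78 for silica (1.71-fold lower) and -1.83 for SPIO (3.57-fold lower) against the LPS group. In SPIO cells the LPS difference was -0.71, a gap of -0.33 ± 0.116 from control cells (95% interval -0.57 to -0.08). For silica the gap was -0.17 ± 0.116 and reached across 0. A second probe set gave -0.52 after silica, -1.20 after SPIO and -1.57 in SPIO-LPS against LPS, and both probe sets of F2r are of the kind that can read more than 1 transcript.

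The 12 measured relatives of F2r, other thrombin receptors, their G proteins and the proteases and cofactors around thrombin (15 listed), moved in both directions. Under LPS 5 of them rose and 3 fell, and after SPIO 3 rose and 2 fell. The shares of all genes were 22.2% and 36.1% under LPS, and 19.6% and 14.2% after SPIO. F10, which becomes the protease that makes thrombin, rose under LPS by 3.90 ± 0.0623 (adjusted p = 3.57e-17 by limma), from a mean of 6.12 to 10.01. Procr, the endothelial protein C receptor that works with F2r, had means of 7.38 in CON, 8.43 in SPIO, 9.25 in LPS and 11.02 in SPIO-LPS, and exceeded LPS in SPIO-LPS by 1.77 ± 0.0718 (adjusted p = 6.57e-11 by limma). Thbd, thrombomodulin, which binds thrombin away from clotting, was lower in Silica-LPS than in LPS, with a difference of -0.51 ± 0.0831 (adjusted p = 0.004 by limma), and in SPIO-LPS, with -0.94 (adjusted p = 3.11e-07 by limma). Without LPS its means were 7.60 in CON, 7.56 in Silica and 7.61 in SPIO. F2rl2, a related receptor, fell after SPIO by 0.39 ± 0.109 (adjusted p = 0.0114 by limma). Its means of 4.79 in CON and 4.40 in SPIO lay toward the dim end.

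Aqp1 differed between particles and not detectably with LPS. It read 6.83, 6.38 and 6.58 in CON and 6.41, 6.30 and 6.52 in LPS, which overlapped, a difference of -0.18 ± 0.108. Silica arrays read 5.61, 5.65 and 5.65, and Silica-LPS arrays 5.46, 5.59 and 5.51. SPIO arrays read 4.68, 4.70 and 4.97, and SPIO-LPS arrays 4.73, 4.98 and 4.67. The 6 groups thus formed 3 steps, 1 for each pretreatment, each clear of the next.

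Without LPS, Aqp1 was 1.95-fold lower after silica (-0.96) and 3.52-fold lower after SPIO (-1.81), and with LPS 1.86-fold (-0.89) and 3.07-fold lower (-1.62). LPS moved it by 0.01 in SPIO cells (95% interval -0.22 to 0.25). Of 8 other aquaporins measured (11 listed), 2 rose and 1 fell under LPS (22.2% and 36.1% of all genes). None of the 8 was called after either particle, with or without LPS, in the limma fit. At an unadjusted p under 0.05 there were 1 after silica, 2 after SPIO, 1 in Silica-LPS against LPS and 0 in SPIO-LPS against LPS. Aqp9, which also passes glycerol and is a known gene of LPS-treated myeloid cells, rose under LPS by 0.63 ± 0.147 (adjusted p = 0.0016 by limma). It stood at 4.30 in CON and 4.36 in SPIO, toward the dim end (adjusted p = 0.777 by limma).

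F2r and Aqp1 are also genes of fibroblasts, vessels and blood cells other than macrophages, and markers of those cells moved after SPIO. Of 14 fibroblast and stroma markers 8 fell and none rose after SPIO (14.2% and 19.6% of all genes). After silica 1 fell and 4 rose (1.57% and 2.45% of all genes). F2r and Aqp1 were lower after both particles. The summed signal of the stroma markers was 14.96 to 14.99 in CON, 15.08 to 15.17 in Silica and 14.68 to 14.72 in SPIO. With LPS the sums were 14.63 to 14.70 alone, 14.72 to 14.75 after silica and 14.34 to 14.38 after SPIO. Col1a2 led that list at 13.55 in CON, and Lum and Thy1, at 2.90 and 4.17, were near the dim end. On the 12 endothelial markers 1 rose and 3 fell after SPIO, and Tek and Cdh5 stood at 3.04 and 4.34 in CON. Of 9 megakaryocyte markers 1 rose and 2 fell after SPIO, with summed signals of 13.72 to 13.78 in CON and 12.89 to 12.97 in SPIO carried by Pf4, which macrophages also make. On the 8 erythroid markers, 1 rose and 3 fell after SPIO, and the red cell gene Slc4a1 stood at 3.21 in CON. Their part in the falls of F2r and Aqp1 was not tested.

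**Figure D3:**
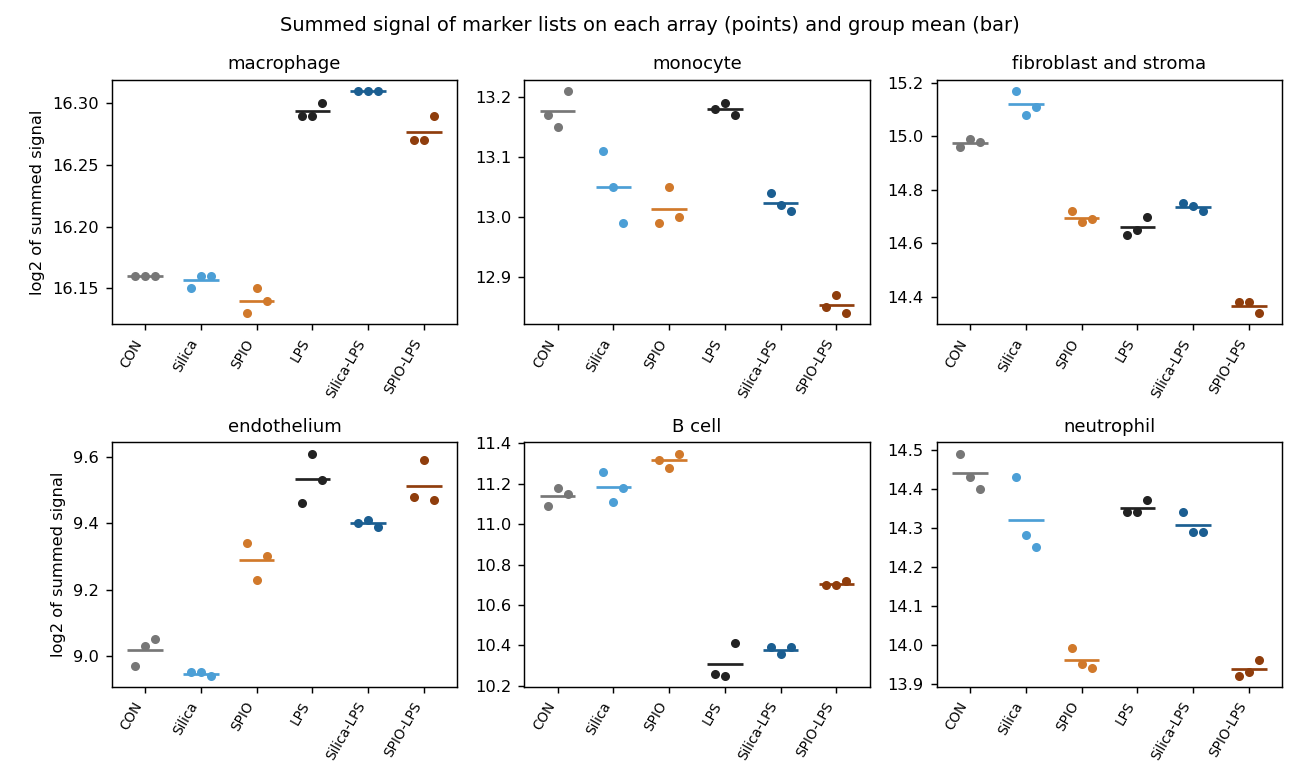
Log2 of the summed signal of 6 marker lists on each array (points) with the mean of each group of 3 (bar), each list on its own axis. The fibroblast sum is highest in Silica (15.08 to 15.17) and lowest in SPIO-LPS (14.34 to 14.38), and the monocyte sum is lowest in SPIO-LPS (12.84 to 12.87).

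Htr2b was higher after both particles and lower under LPS. It read 5.54, 5.41 and 6.12 in CON, 6.46, 6.57 and 6.44 in Silica and 6.80, 6.82 and 6.96 in SPIO. Every particle array was above every CON array, by 0.80 ± 0.155 for silica (1.74-fold) and by 1.17 ± 0.155 for SPIO (2.25-fold). LPS lowered the signal to 4.71, 4.96 and 4.91, 1.78-fold below CON (-0.83). The CON arrays were spread over an SD of 0.375 because replicate 3 was high, and without it the differences were 1.02 for silica, 1.38 for SPIO and -0.62 for LPS.

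With LPS the particle differences in Htr2b were smaller. Silica-LPS arrays read 5.02, 4.67 and 5.23 and overlapped LPS, a difference of 0.12 (95% interval -0.21 to 0.45). SPIO-LPS arrays read 5.25, 5.28 and 5.08 and lay just above LPS, by 0.34 (95% interval 0.01 to 0.67). The LPS fall was deeper in particle cells than in control cells, at 2.86-fold in silica cells (-1.51) and 3.15-fold in SPIO cells (-1.66), gaps of -0.69 ± 0.219 and -0.83 ± 0.219 from control cells. Each gap is the same quantity as the shrinking of the particle difference under LPS. Since Htr2b was picked for its rise after silica, the gaps are descriptions. With single arrays left out they ran from -0.90 to -0.53 for silica and from -1.04 to -0.69 for SPIO.

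Of the 17 measured genes of serotonin signalling (21 listed), 4 rose and 1 fell under LPS, none was called after silica by limma (2 had an unadjusted p under 0.05), and 1 rose and 2 fell after SPIO. Over all genes the shares rising and falling were 22.2% and 36.1% under LPS, 2.45% and 1.57% after silica, and 19.6% and 14.2% after SPIO. The riser after SPIO was Maoa, the mitochondrial oxidase that breaks down serotonin, by 1.05 ± 0.0548 (adjusted p = 1.3e-09 by limma). Its means were 8.93 in CON and Silica, so that it moved with SPIO where Htr2b moved with both particles. Under LPS the serotonin transporter Slc6a4 rose from 3.74 to 4.34, still near the dim end of the array.

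**Figure D4:**
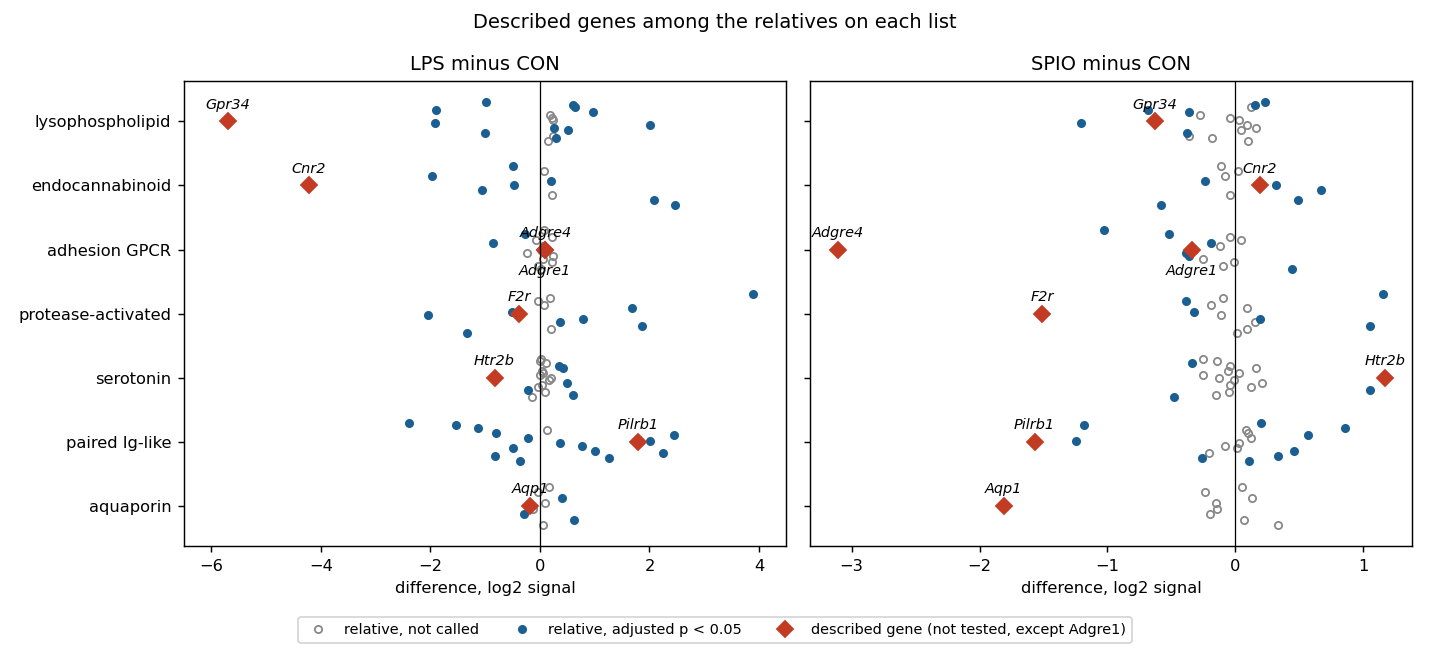
Differences in log2 signal for LPS minus CON (left) and SPIO minus CON (right), with the 8 genes as diamonds on the line of their own list and the measured relatives as circles, filled where limma's adjusted p was under 0.05. Gpr34 and Cnr2 lie at -5.70 and -4.22 on the left, and Adgre4 lies at -3.11 on the right. These genes were picked for their changes in these values, so their distance from the relatives is a description only.

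The 8 genes were also counted by the threshold applied to all genes, an adjusted p under 0.05 by limma. Since 7 of them were picked on these values, nothing is read from the counts here and in the next paragraphs. Under LPS 1 was higher and 4 lower, where 22.2% of all genes were called higher and 36.1% lower. After silica 1 was higher and 4 lower, where 2.45% of all genes were called higher and 1.57% lower, and after SPIO 1 was higher and 6 lower, where 19.6% were higher and 14.2% lower. In Silica-LPS against LPS none was higher and 3 were lower (1.89% and 0.976% of all genes), and in SPIO-LPS against LPS none was higher and 5 were lower (18.2% and 14.6%). The median difference over the 8 genes was -1.07 after SPIO and -0.24 after silica, against -0.01 and 0.00 over all genes. The picking favoured such a gap, so nothing is read from the medians either. The comparisons with CON share its 3 arrays, and those with LPS share that group's 3 arrays.

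Between the particles, given at the same labelled concentration but differing in material and size, 6 of the 8 genes were called lower after SPIO than after silica and none was called higher, where 11.6% of all genes were called lower and 14.6% higher. With LPS 5 were called lower and none higher (12.9% and 12.2%). As a description, the 3 SPIO arrays of Htr2b lay above its 3 Silica arrays, with a difference of 0.37 (95% interval 0.04 to 0.70). Of the 8 genes Adgre4 had the largest gap in both settings, at -2.12 without and -1.65 with LPS. Pilrb1 differed by -1.17 and -0.90 in turn. F2r differed by -0.90 and -1.06. For Gpr34 the gaps were -1.14 and -0.85, and without LPS its silica arrays lay above CON and its SPIO arrays below.

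The LPS response of each gene can be set side by side after all 3 pretreatments. For Gpr34 it was -5.70 in control cells, -5.79 in silica cells and -5.50 in SPIO cells, and for Cnr2 -4.22, -4.33 and -4.61. Since the LPS signals of both genes lay near the dim end after every pretreatment, whether the depth of their loss differed could not be read from these arrays. The gaps between SPIO and control cells for Adgre4, Pilrb1 and Htr2b are given above as descriptions, and that of Adgre1 with its test. By the threshold applied to all genes, the gap between SPIO and control cells was higher for 3 of the 8 genes and lower for 1, where 3.73% and 5.07% of all genes were so called, and that between silica and control cells was called for none of the 8, where 0.00807% of all genes were called higher and as many lower. The responses themselves were higher for 3 and lower for 4 both in silica cells (21.5% and 35.8% of all genes) and in SPIO cells (27.3% and 36.7%). As before, nothing is read from these counts.

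**Figure D5:**
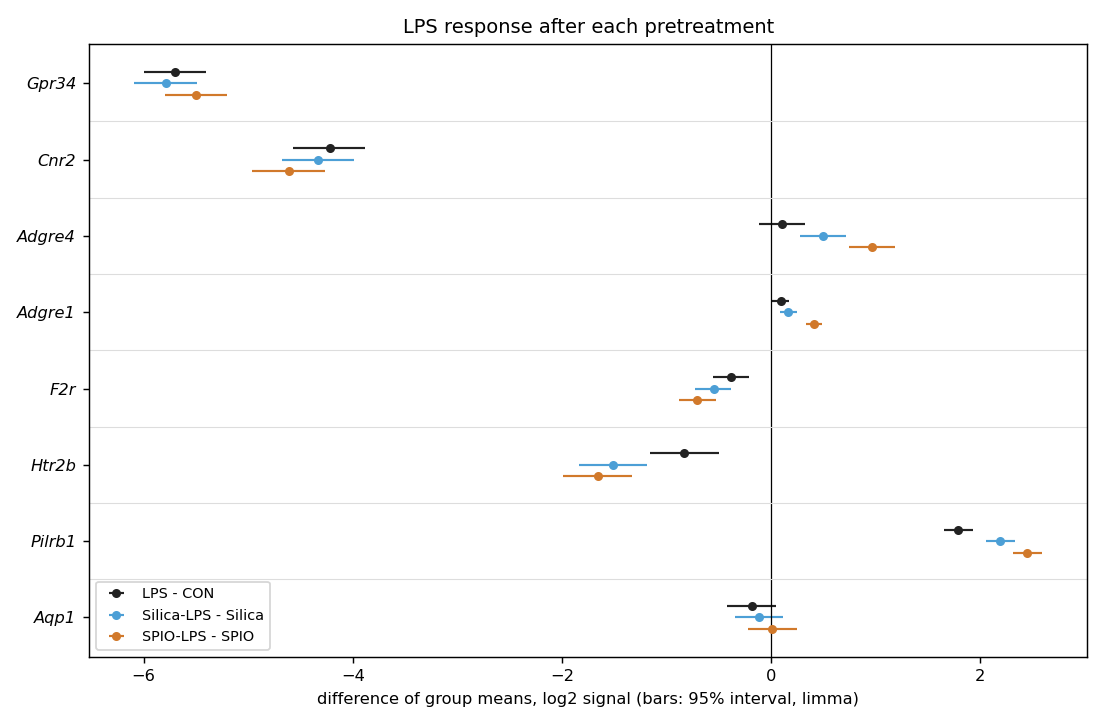
Difference in log2 signal made by LPS in control, silica and SPIO cells for the 8 genes, with 95% intervals from limma. Gpr34 and Cnr2 lie far to the left in all 3 kinds of cells, and Adgre4, Adgre1 and Pilrb1 lie further to the right in SPIO cells (0.96, 0.41 and 2.45) than in control cells (0.10, 0.09 and 1.79).

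The genes most like each of the 8 were ranked by the root mean square gap between their differences from CON over the 5 treated groups. Gpr34 was nearest to the chemokine receptor Cxcr4 (0.601), which had a difference of -5.32 under LPS but moved by 0.03 after SPIO, and then to Cnr2 (1.18). Cnr2 was nearest to Rassf3 (0.18), Sesn1 (0.252) and Rgs2 (0.348), each lower under LPS by about as much as Cnr2. Adgre4 had no close match, its nearest being Aqp1 (0.667), Mgp (0.781) and F2r (0.825). F2r and Aqp1 were both nearest to Mgp, the matrix Gla protein (0.245 and 0.167), which had differences of -0.19 under LPS, -0.70 after silica and -1.56 after SPIO, and both had F13a1, the coagulation factor XIII subunit of macrophages, among their 3 nearest (0.289 and 0.346). Pilrb1 was nearest to Fcgr4 (0.294) and Pilra (0.331), and Htr2b to Socs6 (0.288) and Ppargc1b (0.293). Adgre1 was within 0.0404 to 0.0416 of Pax5, Cdc42bpa and Tnxb, genes with small differences from CON in every group. All these distances share the same CON arrays.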

How the data were processed

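Total RNA of the 18 cultures was labelled as biotinylated cRNA, starting from 3 µg, and hybridised to Affymetrix arrays. The authors deposited log2 signals made with RMA (robust multi-array averaging, which corrects background and normalises between arrays), per the submitters' processing notes. Which software version and probe mapping were used is not given in the sources used here. RMA makes the arrays' distributions alike, which can shift small differences when LPS changes many genes.

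Probe sets were named from GEO's platform annotation. Of 22626 probe sets without the 64 controls, 20380 carried 1 symbol, 691 several and 1555 none, and 20351 symbols were matched by gene ID to current RefSeq symbols. A gene was read from its probe set with the highest mean signal, and 4956 of 12393 genes had more than 1. One linear model with a mean per group was fitted in limma 3.58.1 (R 4.3.3), with 11 contrasts. P-values were adjusted by Benjamini-Hochberg over all genes in each contrast and called under 0.05. Errors are the model's standard errors. The method was tested on simulated data. The number of arrays limits the precision.

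The genes described, the 7 lists of relatives (130 genes) and the 11 marker lists were chosen with earlier results of these data known. Up to 4 called relatives with the largest change in size were named per list and comparison, together with the adaptor of Pilrb1, Cnr1, and genes shown to give a contrast, chosen after their values were seen. Marker genes were named as the brightest, dimmest or defining ones of their list, and the 3 nearest patterns were named for each gene. No 2 columns held identical values. Alternatives were a replicate block, the compared groups alone, trend and robust variance, leaving out the dimmest 33.3% of genes, other probe set rules, cyclic loess, array weights and leaving out each array.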

Additional observations from a re-analysis of the deposited data

Results flagged for a closer look

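The LPS response was compared between SPIO and control cells for Adgre1 and the named relatives, 46 genes in all, by the interaction term of the limma fit adjusted over all genes. It differed for the 12 given here, and for none of the 46 between silica and control cells, where 8 had an unadjusted p under 0.05. Over all genes, 3.73% were called higher and 5.07% lower for SPIO, and 0.00807% in each direction for silica. The relatives were named for large differences, partly in the SPIO comparisons that make up this term. The count of 12 is therefore a description. Values are the response in SPIO cells minus that in control cells, on the log2 scale.

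For Adgre1 the difference was 0.32 (adjusted p = 0.00119 by limma), as it rose by 0.41 in SPIO cells and differed by 0.09 in control cells. Pilra, the inhibitory partner of Pilrb1, had a larger rise in SPIO cells, by 0.48 (adjusted p = 0.00584 by limma), and so had Procr, by 0.71 (adjusted p = 0.00024 by limma). The rises of the LPS-induced genes F10, Naaa and P2ry14 were smaller in SPIO cells, with differences of -0.89 (adjusted p = 7.5e-06 by limma), -0.86 (adjusted p = 7.5e-06 by limma) and -0.51 (adjusted p = 0.0431 by limma). After SPIO alone, F10 was already higher by 1.15 (adjusted p = 1.69e-09 by limma) and Naaa by 0.49 (adjusted p = 1.24e-05 by limma). In SPIO-LPS, F10 lay above LPS by 0.27 (adjusted p = 0.00336 by limma). Naaa and P2ry14 lay below LPS there, with differences of -0.37 (adjusted p = 0.000177 by limma) and -0.42 (adjusted p = 0.00547 by limma). Naaa rose by 2.09 in control cells, 2.15 in silica cells and 1.23 in SPIO cells.

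The falls of Thbd, Gpr65 and Cd300a were deeper in SPIO cells, by -0.95 (adjusted p = 6.77e-05 by limma), -0.40 (adjusted p = 0.00746 by limma) and -0.37 (adjusted p = 0.000315 by limma). The LPS response of Thbd was -1.33 in control cells, -1.80 in silica cells and -2.28 in SPIO cells. Maoa and Celsr3 gave -0.34 (adjusted p = 0.00923 by limma) and -0.52 (adjusted p = 0.00609 by limma), and the fall of the phosphodiesterase Gde1 was smaller in SPIO cells, by 0.49 (adjusted p = 0.000225 by limma).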

How the results depend on the processing

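Of the differences of the 7 picked genes, 584 values stayed within the spread of the arrays and 32 moved by more under other settings, and 1381 and 5 did so when single arrays were left out. None that was called changed sign. The moves were those of Adgre4 and F2r with another probe set, of Adgre4, F2r and Pilrb1 with cyclic loess, and of Htr2b without CON replicate 3. Adgre1 under LPS passed with trend and robust variance (0.09, adjusted p = 0.013 by limma), without the dimmest genes (0.09, adjusted p = 0.0372 by limma) and with cyclic loess (0.24). Its uncalled differences between particle and particle-free cells under LPS ran from -0.01 to 0.03 for silica and from -0.04 to 0.01 for SPIO when single arrays were left out. Changes in sign came without LPS replicate 3 and without Silica-LPS replicate 1 for silica, both at -0.01, and without LPS replicate 1 for SPIO, at 0.01. The number of genes called after silica was 498, and 110 in the compared groups alone, 850 with trend and robust variance, 755 without the dimmest genes and 919 with array weights. It ran from 203 to 550 when single arrays were left out, with 306, 203 and 318 without CON replicate 1, 2 and 3, and 297 and 228 without Silica replicate 2 and 3. In Silica-LPS against LPS it was 355, and 63, 577 and 536 in the first 3 of these, and 186 to 385 with arrays left out, with 196 without LPS replicate 2, and 214 and 186 without Silica-LPS replicate 1 and 3. The silica by LPS term called 2 genes, and 0 in the compared groups alone, 40 with trend and robust variance, 5 without the dimmest genes, 1 with means of probe sets, 0 with every probe set, 1 with cyclic loess and 0 to 2 with arrays left out. Every probe set as its own row called 11296 under LPS, 6619 after SPIO, 6162 in SPIO-LPS against LPS, and 11199 and 12375 for LPS in silica and SPIO cells, since more rows were tested. Cyclic loess changed the higher and lower calls from 2747 and 4469 to 3276 and 3618 under LPS, from 304 and 194 to 253 and 268 after silica, and from 2662 and 4442 to 3370 and 3547 for LPS in silica cells. No shared deviation of same-numbered arrays was detected (45 pairs, correlations of -0.315 to 0.187, median -0.0148). Whether same-numbered cultures were prepared together cannot be told from this. With the replicate number as a block the silica by LPS term called 0 genes, and every other count stayed within 1.5 times.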

Other observations

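Several relatives of the described genes changed in both particle settings. Gde1, a phosphodiesterase that acts on lysophospholipids and on endocannabinoid precursors, fell under LPS by 1.05 ± 0.0491 (adjusted p = 1.75e-11 by limma) but rose after silica by 0.21 (adjusted p = 0.0265 by limma) and after SPIO by 0.67 (adjusted p = 4.02e-08 by limma). Under LPS it was higher after silica by 0.40 (adjusted p = 0.000444 by limma) and after SPIO by 1.16 (adjusted p = 1.01e-10 by limma). Clec5a, whose means are given above, rose after silica by 0.34 (adjusted p = 0.0201 by limma), and with LPS it was higher after silica by 0.39 (adjusted p = 0.00947 by limma) and after SPIO by 0.74 (adjusted p = 1.34e-06 by limma).

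Other relatives changed strongly under LPS. Gna12, a G protein through which thrombin receptors signal, fell by 2.04 ± 0.0604 (adjusted p = 4.82e-14 by limma), while tissue factor, F3, which starts clotting, rose by 1.69 ± 0.0998 (adjusted p = 3.27e-10 by limma). The inhibitory receptor Cd300a fell by 2.40 ± 0.0385 (adjusted p = 3.7e-17 by limma). Trem1, an activating receptor that amplifies inflammation, rose by 2.24 ± 0.157 (adjusted p = 2.83e-09 by limma), and in SPIO-LPS it stayed below LPS, with a difference of -0.83 (adjusted p = 0.000641 by limma). S1pr1, a receptor for sphingosine 1-phosphate, fell under LPS by 1.01 ± 0.0805 (adjusted p = 1.5e-08 by limma) and after SPIO by 0.38 (adjusted p = 0.00168 by limma).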
